A study of Mus musculus with 34 samples.

Results

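AC modRNA and Luc modRNA were compared in mouse left ventricle 48 h after myocardial infarction (MI). The comparison uses 8 of the 34 samples in the series: 4 AC libraries, which the labels number 1, 2, 4 and 5, and 4 Luc libraries, numbered 1, 2, 3 and 4. These 8 libraries were taken by label alone, so no measured value chose them. The gene lists used below were drawn up with earlier results of these data known. All 8 hearts came from CFW mice, an outbred strain, whose left anterior descending coronary artery had been tied permanently, and all 8 received modRNA in the border zone of the infarct right after ligation. modRNA is mRNA made in vitro with modified nucleosides. Luc modRNA encodes luciferase, a reporter with no role in the heart. The labels do not spell out AC, and give neither the age of the mice nor whether libraries came from separate animals, so the p-values below measure the spread between these libraries, which may in part be technical. No uninjected infarcted heart at 48 h is among the 24 libraries of the same table. It holds 2 sham-operated libraries, taken at 4 h, which are given as a reference for levels, and matched AC and Luc groups at 4 h (4 and 4 libraries) and at 24 h (3 and 3 libraries).

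A ligated ventricle passes through a fixed order of events. Dying cardiomyocytes first draw in neutrophils, then monocytes that become macrophages and clear debris, and later fibroblasts divide and lay down matrix that becomes the scar. Ceramide, a sphingolipid, is split by ceramidases into a fatty acid and sphingosine, and sphingosine kinases turn sphingosine into sphingosine 1-phosphate, which signals through receptors on vessel and immune cells.

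Values are normalised read counts in CPM, scaled per library but not to equal totals. The summed CPM of all genes was 641170 in Luc 1 and 566755 in Luc 3, the highest of these libraries. It was 508204 in Luc 2, 515536 in Luc 4 and 518618 to 534624 in AC. Reads per library were estimated from the smallest step between values, and ranged from 17092939 to 22196969. Differences are AC minus Luc on the log2(CPM + 1) scale with their standard error (SE), and folds are ratios of group means in CPM. The log2 scale understates the change of genes at a few CPM. A gene was called at an adjusted p under 0.05 (limma, Benjamini-Hochberg over all 12555 genes tested). Of these, 1208 were called (9.62%), 1034 higher in AC (8.24%) and 174 lower (1.39%), and the median difference of all genes was 0.14. Rescaling libraries by their median ratio moved that median to -0.02 and the calls to 537 higher and 440 lower, so counts in either direction are read beside these. Over all genes tested, 3610 (28.8%) were at an unadjusted p under 0.05. All AC libraries lay above all Luc libraries for 1949 genes (15.5%) and under them for 450 (3.58%). List counts of these kinds are read beside these shares. Where values are listed, they follow the order AC libraries 1, 2, 4 and 5, then Luc libraries 1, 2, 3 and 4.

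The Luc libraries formed 2 pairs. Across genes, Luc 1 and Luc 3 correlated at r = 0.984 with each other, as did Luc 2 and Luc 4 (r = 0.984), but only 0.945 to 0.969 across the pairs. AC libraries correlated at 0.971 to 0.99 with each other and at 0.970 to 0.981 with Luc 2 and Luc 4. With Luc 1 and Luc 3 they correlated at 0.929 to 0.951. Without Luc 1 and Luc 3, 681 genes were called, 532 of them among the 1208, and without Luc 2 and Luc 4, 4652. Leaving out 1 library gave 305 (AC 2) to 2628 (Luc 4) called genes. Cardiomyocyte genes were abundant in all 8 libraries: Myh6, the main adult myosin heavy chain, stood between 5131 and 14747 CPM.

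Asah1, which encodes acid ceramidase, was higher in every AC library. It stood at 42.5, 112.4, 66.4 and 80.3 CPM in AC and at 28.2, 23.5, 21.4 and 25.1 CPM in Luc. The groups did not overlap, and Luc lay at the level of the sham hearts (32.9 and 25.1 CPM). The difference was 1.5 (SE 0.25, adjusted p = 0.00984), a 3.07-fold ratio. The gene lies on chromosome 8, from 41340646 to 41374698 on the minus strand of mm10. The table counts reads per gene, so RNA from the injected molecule and from the mouse gene cannot be told apart in it.

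**Figure D1:**
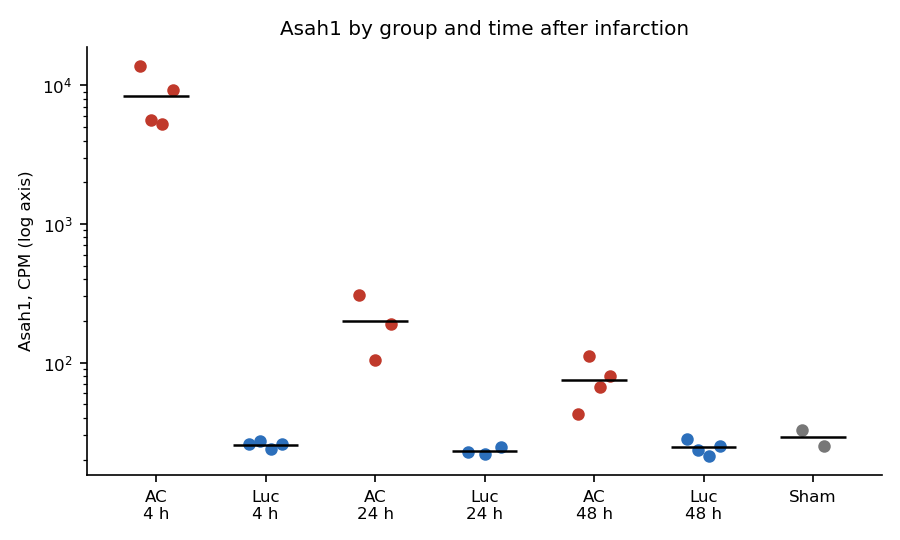
Asah1 in CPM (log axis) in each AC (red), Luc (blue) and sham (grey) library by time after infarction; black lines are group means. AC libraries stand between 5296 and 13703 CPM at 4 h, between 104.1 and 305.3 CPM at 24 h and between 42.5 and 112.4 CPM at 48 h, while Luc libraries stay between 21.4 and 28.2 CPM.

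The excess of Asah1 in AC hearts shrank with time. At 4 h the AC mean was 8460 ± 3930 CPM (SD, n = 4) and the Luc mean 25.6 CPM. At 24 h they were 200 ± 101 CPM (SD, n = 3) and 23.1 CPM. At 48 h AC stood at 75.4 ± 29.2 CPM (SD, n = 4) and Luc at 24.5 CPM. That is a ratio of 330-fold, 8.66-fold and 3.07-fold. The AC minus Luc difference at 48 h was smaller than at 4 h (-6.70 on the log2 scale, SE 0.42, adjusted p = 8.45e-10), and lay -1.42 from that at 24 h without passing (adjusted p = 0.0957).

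Among the other genes that act on ceramide and sphingosine 1-phosphate, Acer2 fell and S1pr2 rose. Acer2, the alkaline ceramidase of the Golgi, was at 14.3, 14.0, 17.6 and 12.2 CPM in AC and at 62.1, 25.5, 54.0 and 28.6 CPM in Luc. All AC libraries lay under all Luc libraries, and Luc 1 and Luc 3 were the highest. The difference was -1.40 (SE 0.27, adjusted p = 0.0129). S1pr2, a sphingosine 1-phosphate receptor, rose from 4.64, 7.51, 5.17 and 8.63 CPM in Luc to 12.6, 15.7, 15.7 and 13.6 CPM in AC (1.07, SE 0.19, adjusted p = 0.0103). Naaa, a lysosomal amidase related to acid ceramidase, was higher by 0.53 (adjusted p = 0.0396) and Plpp2, a lipid phosphatase, by 0.64 (adjusted p = 0.0243). In all, 4 of the 17 tested ceramidase and sphingosine phosphate genes rose and 1 fell, against 8.24% and 1.39% of all genes. The 4 include Asah1, in which RNA of the injected molecule cannot be told apart. The list median was 0.0165, against 0.135 for all genes. With a minimum of 10 CPM, 13 were tested, of which 1 rose and 1 fell. With Luc 1 and Luc 3 left out, with median-ratio rescaling, or with any AC library, Luc 1 or Luc 3 left out alone, 2 rose and 1 fell. Asah2 (10.2 to 13.6 CPM in AC, 8.36 to 15.2 CPM in Luc) and Acer3 (adjusted p = 0.214) did not pass. Sphk1, which makes sphingosine 1-phosphate, stood at 26.1 and 32.1 CPM in Luc 1 and Luc 3 but at 5.7 and 3.79 CPM in Luc 2 and Luc 4, beside 4.15 to 5.16 CPM in AC (-1.21, adjusted p = 0.165). Of 24 genes of ceramide and sphingomyelin synthesis, 1 was called, Degs2 (0.53, adjusted p = 0.0408), and it was not called by limma-voom on estimated reads.

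Genes of monocytes and infiltrating macrophages were higher in AC. Ccr2, the receptor that brings monocytes into injured tissue, was at 37.4, 53.4, 50.9 and 36.3 CPM in AC against 7.81, 12, 6.63 and 12 CPM in Luc. The groups lay far apart, with sham hearts at 1.15 and 0.773 CPM. Its difference of 2.12 (SE 0.21) had an adjusted p of 0.00311, the lowest of all genes together with those of Meox1 and Spon2. Fcgr1, an Fc receptor of macrophages, was at 22.3 to 27.3 CPM in AC and 9.68 to 13.8 CPM in Luc (1.11, adjusted p = 0.00856). Ms4a7, a macrophage membrane protein, was at 15.1, 17.2, 21.8 and 14.9 CPM against 2.08, 5.7, 1.49 and 4.26 CPM (2.15, SE 0.29, adjusted p = 0.00856). Trem2, a lipid-sensing receptor of macrophages, was at 9.27 to 10.1 CPM against 1.79 to 4.26 CPM. Spp1, the secreted phosphoprotein osteopontin, had the largest difference of all called genes at 10 CPM or more, with 322.8, 348.1, 398.3 and 235.6 CPM in AC and 31.5, 148.1, 7.86 and 93.4 CPM in Luc (2.84, SE 0.69, adjusted p = 0.0299). It was near 0 in sham hearts (0.293 and 0.349 CPM), and the Luc libraries spread widely.

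Of the 18 tested monocyte and macrophage markers, 9 rose and 0 fell (0 fell by limma-voom as well, and 0 were lower at an unadjusted p under 0.05), with a median of 0.90. The summed level of the list was 899 to 1400 CPM in AC, 371 to 547 CPM in Luc and 68.3 to 73.8 CPM in sham hearts. Spp1 and Fn1, which encodes fibronectin, made up a large part of the AC sums. With both taken out, the AC and Luc sums would overlap. The count stayed at 9 without Luc 1 and Luc 3. In heart tissue as a whole, more cells of a type and more RNA per cell cannot be told apart. The difference was above 0 for 15 of the 18. Markers of resident cardiac macrophages went both ways. Cx3cr1, a chemokine receptor shared by resident and monocyte-derived cells, rose from 0.862 to 4.09 CPM in Luc to 8.9 to 14.5 CPM in AC (1.97, adjusted p = 0.00856). Lyve1, a hyaluronan receptor, was lower in AC at 9.38, 7.66, 10.4 and 10.2 CPM than in Luc at 34.5, 16.8, 31.5 and 15.4 CPM (-1.22, SE 0.25, adjusted p = 0.0159), and so was Cd163, a haemoglobin scavenger receptor (-1.01, adjusted p = 0.0228). The other 9 of the 12 were not called. Itgax, an integrin of dendritic cells and some macrophages, rose by 1.35 (adjusted p = 0.00856), as 1 of 4 tested dendritic and mast cell markers.

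Among the CC chemokines, which include attractants of monocytes, Ccl7 and Ccl2 rose. Ccl7 was at 46.0, 49.8, 65.5 and 49.9 CPM in AC against 13.6, 34.7, 10.0 and 16.8 CPM in Luc (1.58, SE 0.30, adjusted p = 0.0128). Ccl2 was at 62.6 to 80.0 CPM against 27.6 to 47.7 CPM (1.02, adjusted p = 0.0103). In this list 8 of 18 genes rose and 0 fell, and 4 of 18 rose without Luc 1 and Luc 3, where the median was 0.52 against 0.44 with all libraries. Without AC 4 alone 5 rose. By limma-voom 0 of the 18 fell, and 1 was lower at an unadjusted p under 0.05. Among 12 CXC chemokine genes, which include attractants of neutrophils, Cxcl16 (0.98, adjusted p = 0.00856) and Cxcr4 (0.66, adjusted p = 0.0451) rose. The list median was -0.23, with 0 called lower by limma or limma-voom, 4 lower at an unadjusted p under 0.05, and 5 called lower without Luc 4.

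Genes of antigen presentation and some of the lysosome rose as well. H2-DMa, which loads peptides onto MHC class II, was at 9, 8.14, 5.51 and 6.33 CPM in AC and at 3.03, 2.72, 2.39 and 2.88 CPM in Luc (1.12, SE 0.16, adjusted p = 0.00856). H2-Aa, a class II chain, was at 23.1 to 31.8 CPM in AC and 13.7 to 20.1 CPM in Luc, both under the sham hearts (58.3 and 50.8 CPM). For this list 7 of 9 rose, but 2 without AC 2, 3 without AC 1 or AC 5, 4 without Luc 2 and 3 with median-ratio rescaling. Of 27 lysosomal and phagocytic genes 9 rose, or 4 without AC 2 or AC 4, 6 without AC 5 and 10 without Luc 1 and Luc 3. They include Ctsc, a protease that activates others (75.3 to 101.6 CPM against 18.4 to 39.1 CPM, 1.57), Msr1, a scavenger receptor (1.36), and Ctsz (0.88). Each of these 3 had an adjusted p of 0.00856. Cd36, a fatty acid and lipoprotein receptor, was the member that fell (-0.99, adjusted p = 0.0298), and none fell without Luc 1 and Luc 3.

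**Figure D2:**
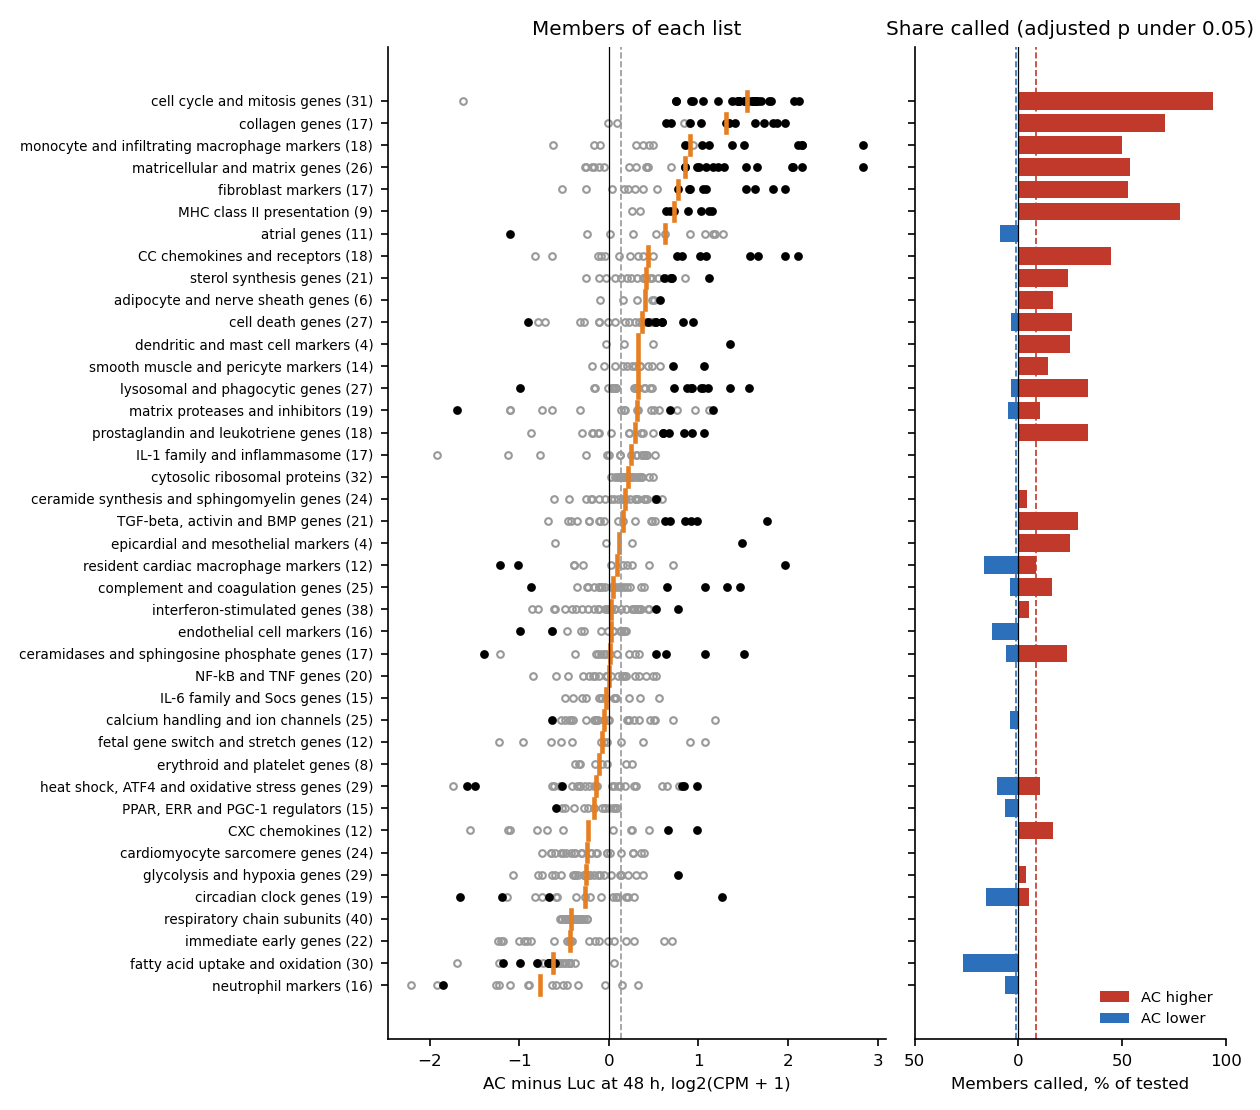
Left, AC minus Luc difference at 48 h on the log2(CPM + 1) scale for every tested member of each list with at least 4 tested genes; filled points passed an adjusted p of 0.05, orange bars are list medians and the dashed line is the median of all genes, 0.14. Right, share of tested members called higher (red) or lower (blue), with dashed lines at 8.24% and 1.39%, the shares over all genes; cell cycle and mitosis genes (29 of 31 higher) stand at the top and neutrophil markers, median -0.77, at the bottom.

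Neutrophil markers lay lower in AC than in Luc, mostly against Luc 1 and Luc 3. Lcn2, a neutrophil granule protein that injured cells make as well, was at 41.8, 32.7, 27.7 and 57.1 CPM in AC and at 244.1, 65.8, 270.4 and 89.6 CPM in Luc. No AC library reached a Luc library (-1.85, SE 0.43, adjusted p = 0.0245). It was the single member called of 16. Retnlg stood at 46.1 and 29.0 CPM in Luc 1 and Luc 3, at 9.52 and 1.35 CPM in Luc 2 and Luc 4 and at 1.57 to 2.58 CPM in AC (adjusted p = 0.0792). Il1r2, a decoy receptor of interleukin 1, was at 74.4, 12.6, 42.5 and 7.13 CPM in Luc and at 4.23 to 6.98 CPM in AC (adjusted p = 0.0589). The summed list was 958.5 and 751.3 CPM in Luc 1 and Luc 3, 380.2 and 317.6 CPM in Luc 2 and Luc 4, and 237.6 to 330.9 CPM in AC. The list median was -0.77 with all libraries and -0.11 without Luc 1 and Luc 3, where none was called, while 9 were called lower without Luc 4.

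**Figure D3:**
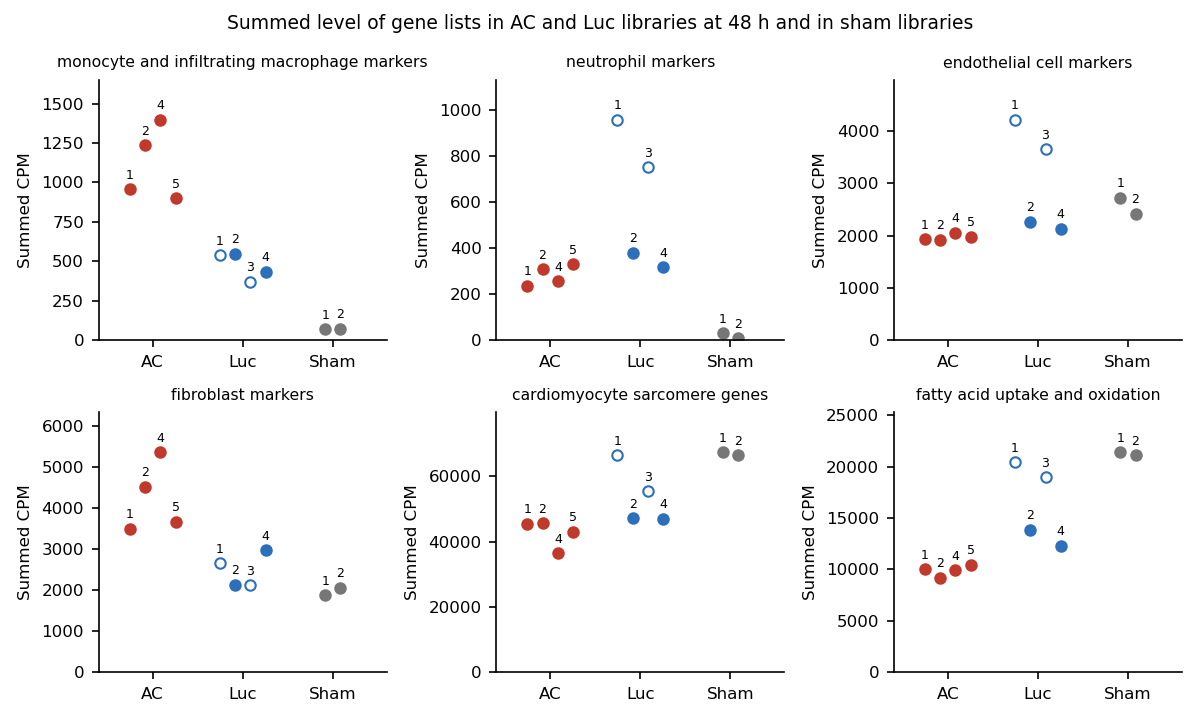
Summed CPM of 6 gene lists in each AC (red) and Luc (blue) library at 48 h and in sham libraries (grey), with library numbers; open circles are Luc 1 and Luc 3. AC libraries stand above all Luc libraries for monocyte and macrophage markers and for fibroblast markers, while Luc 1 and Luc 3 stand above all others at 48 h for neutrophil, endothelial, sarcomere and fatty acid genes. The AC and Luc sums would overlap for monocyte and macrophage markers without Spp1 and Fn1. They would also overlap for fibroblast markers without Col1a1 and Col3a1.

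Genes of inflammatory signalling gave few calls. By limma and by limma-voom, 0 of 20 NF-kB and TNF genes were called. Likewise, 0 of 17 genes of the interleukin 1 family and inflammasome and 0 of 15 genes of the interleukin 6 family were called. In these lists 4, 7 and 3 genes were at an unadjusted p under 0.05, against 28.8% of all genes. Of 38 interferon-stimulated genes, 2 rose, Oas1a (0.78, adjusted p = 0.0197) and Trim30a (0.52, adjusted p = 0.0455), and 0 fell (0 by limma-voom and 0 at an unadjusted p under 0.05), while the list median was 0.02. Without Luc 2 and Luc 4, 11 of the 38 were lower in AC. Of 25 complement and coagulation genes, C3ar1, the receptor of complement fragment C3a, rose (35.7 to 60.7 CPM against 13.1 to 20.8 CPM, 1.47, adjusted p = 0.00856). Cfp (1.07), Plau (1.31) and Tfpi2 (0.65) rose as well, and Thbd, thrombomodulin, fell (-0.87, adjusted p = 0.0405). Without Luc 1 and Luc 3, 5 of this list rose and 0 fell.

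Cell cycle genes had the largest share of called members among the lists. Of 31 tested genes 29 were higher in AC at an adjusted p under 0.05, against 8.24% of all genes. All AC libraries lay above all Luc libraries for 29 of 31, against 15.5% of all genes. The list median was 1.54 against 0.14 for all genes. Top2a, the topoisomerase of dividing cells, was at 22.4, 28.0, 32.1 and 25.0 CPM in AC and at 5, 7.51, 1.36 and 12.3 CPM in Luc (2.13, SE 0.42, adjusted p = 0.014). Mki67, which encodes the proliferation antigen Ki-67, was at 21.5, 36.8, 40.3 and 28.9 CPM against 4.01, 11.1, 2.45 and 15.2 CPM (2.07, SE 0.43, adjusted p = 0.017). In both genes Luc 4 was the highest Luc library and Luc 3 the lowest, and sham hearts lay at 2.06 to 4.07 CPM.

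Regulators of mitosis rose from lower levels. Cdc20, which activates the anaphase-promoting complex, was at 9.55, 9.33, 10.1 and 9.25 CPM in AC and at 1.68, 3.48, 1.33 and 4.1 CPM in Luc (1.61, SE 0.24, adjusted p = 0.00856). Plk1, a mitotic kinase, was at 5.92, 7.32, 7.59 and 5.21 CPM against 0.876, 1.84, 0.564 and 2.68 CPM (1.66, SE 0.25, adjusted p = 0.00856). AC libraries were alike in these 2 genes, while the Luc libraries again differed by their pair. Nusap1 (1.64), a spindle protein, and Aurka (1.44), a spindle kinase, had the same adjusted p. Genes of DNA replication rose as well, with Mcm3 of the replicative helicase at 16.9 to 22.1 CPM against 4.84 to 12 CPM (1.22, adjusted p = 0.0106) and the sliding clamp Pcna at 40.4 to 50.8 CPM against 20.1 to 31.4 CPM (0.75, adjusted p = 0.0165). The exceptions were Cenpf, a kinetochore protein at 21.1 CPM in Luc 4 and 1.68 to 3.59 CPM in the other Luc libraries (adjusted p = 0.129), and Cdkn1a. Cdkn1a encodes the cell cycle inhibitor p21. It was at 343.9 and 363.1 CPM in Luc 1 and Luc 3, at 89.9 and 42.8 CPM in Luc 2 and Luc 4 and at 37.5 to 51.5 CPM in AC (adjusted p = 0.0955). Between 22 and 30 of the 31 rose when single libraries were left out, and 24 of 31 without Luc 1 and Luc 3, where the median was 1.04. With AC and Luc libraries 1, 2 and 4 alone, blocked by number, 20 of 31 rose. Most members were of low abundance: with a minimum of 10 CPM, 5 were tested and 3 rose, at a median of 0.755.

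Promoters of cell cycle genes often carry a CCAAT box and, near the start, a cell cycle homology region, written here as TTTGAA. Promoters of 300 bases (RefSeq, GRCm38.p6) were matched for 24 of the 31 genes. TTTGAA was found on either strand in 11 of the 24 genes (45.8%), against 14.0% of 9737 tested genes with a promoter and 20.2% of all 27025 genes with one. Of the 12 genes with the largest increases, 9 had a promoter and 6 of these held the letters (66.7%), among them Col15a1, Col3a1 and Spp1, which are not cell cycle genes. CCAAT was found in 19 of the 24 (79.2%), against 42.6% and 41.1%. A match is a description of the letters in this window and not a site. Stretches of 60 bases from 3 of the genes with values above are shown to place the letters, with TTTGAA in capitals, on the strand of the gene. They are chr4:118437329-118437388 (minus strand) for Cdc20, chr7:122159425-122159484 (plus strand) for Plk1 and chr2:172370521-172370580 (minus strand) for Aurka.
Cdc20: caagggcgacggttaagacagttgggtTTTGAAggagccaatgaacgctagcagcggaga
Plk1: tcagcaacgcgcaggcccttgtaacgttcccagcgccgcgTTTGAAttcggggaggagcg
Aurka: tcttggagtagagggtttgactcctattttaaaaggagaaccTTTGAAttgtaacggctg

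Collagen and other scar matrix genes were higher in AC. Col1a1, a chain of type I collagen, was at 426.0, 672.8, 752.6 and 425.7 CPM in AC and at 112.0, 179.0, 87.1 and 314.9 CPM in Luc (1.84, SE 0.36, adjusted p = 0.0138). Col3a1, type III collagen, was at 749.4, 1082, 1441 and 875.5 CPM against 209.0, 324.5, 122.0 and 529.7 CPM (1.96, SE 0.39, adjusted p = 0.0141). The lowest AC library lay above the highest Luc library in both, and Luc 4 was closest to AC. Col15a1, a basement membrane collagen, rose 3.4-fold (1.87, adjusted p = 0.01), and Col5a2 and Col8a1 rose by 1.41 and 1.73. In all, 12 of 17 collagen genes rose, with a list median of 1.31, whereas Col4a1 (0.09), a chain of type IV collagen in vessel walls, was not called (adjusted p = 0.842). The collagen count moved with the libraries used: 3 of 17 were called without Luc 1 and Luc 3 (median 0.91) and 3 without AC 2 alone (median 1.2), with 5 without AC 4, 7 without AC 5 and 8 without Luc 3.

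Fn1, fibronectin, was at 207.6, 356.5, 421.7 and 208.8 CPM in AC against 42.2, 91.9, 34.3 and 117.7 CPM in Luc (2.15, SE 0.39, adjusted p = 0.0107). Tnc, tenascin C, a matrix protein of healing wounds, was at 132.2 to 305.1 CPM against 16.2 to 84.2 CPM and under 1 CPM in sham hearts (2.05, adjusted p = 0.0195). Postn, periostin, a product of activated fibroblasts, was at 205.4, 276.0, 372.9 and 228.3 CPM against 92.8, 86.8, 75.3 and 112.4 CPM. Here the 4 Luc libraries lay close together (1.53, SE 0.20, adjusted p = 0.00856). Loxl2, a cross-linking enzyme of collagen (1.29), Has2, a hyaluronan synthase (1.22), and Timp1, an inhibitor of matrix proteases (1.16), rose too, and 14 of 26 matricellular and matrix genes were higher in all, or 9 of 26 without Luc 1 and Luc 3 and 7 without AC 2. By contrast Timp4, the inhibitor most typical of the heart, was lower at 4.38, 5.61, 4.61 and 2.46 CPM in AC against 43.2, 11.9, 15.7 and 6.91 CPM in Luc (-1.69, SE 0.43, adjusted p = 0.0345).

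Of 17 fibroblast markers, which share 3 collagen genes with the list above, 9 rose and 8 did not pass, and 6 rose without Luc 1 and Luc 3 and 4 without AC 2. Vim, vimentin, stood at 582.4 to 662.4 CPM against 287.9 to 390.9 CPM (0.91, adjusted p = 0.00984), and Thy1, a surface marker, at 18.1 to 24.9 CPM against 7.16 to 12.6 CPM (1.06, adjusted p = 0.01). Meox1, a homeobox factor of activated fibroblasts, was at 40.7, 36.2, 36.3 and 33.4 CPM in AC and at 14.3, 12.2, 10.4 and 14.4 CPM in Luc, with sham hearts at 14.6 and 9.2 CPM. The groups did not overlap (1.45, SE 0.14, adjusted p = 0.00311). Pdgfra (0.17), Dcn (-0.26) and Gsn (-0.52), which resting fibroblasts express, were not called. In the TGF-beta, activin and BMP list 6 of 21 rose: Ltbp2, which binds matrix fibres (1.77, adjusted p = 0.00856), Fstl1 (0.99), Bmp2 (0.68), Tgfb1 (0.63), Tgfb3 (0.85) and Tgfbi (0.91). The count was 2 without AC 2 or AC 5 and 3 without AC 4. The median of that list was 0.16 and fell to -0.01 with median-ratio rescaling. Of 14 smooth muscle and pericyte markers Tagln (0.71, adjusted p = 0.0162) and Cnn1 (1.07, adjusted p = 0.0267) rose, but 0 rose without AC 2, AC 4 or AC 5. Aldh1a2, an enzyme of retinoic acid synthesis found in activated epicardium, was at 58.4 to 76.7 CPM against 13.4 to 36.0 CPM and at 1.82 and 2.38 CPM in sham hearts (1.48, adjusted p = 0.00984).

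**Figure D4:**
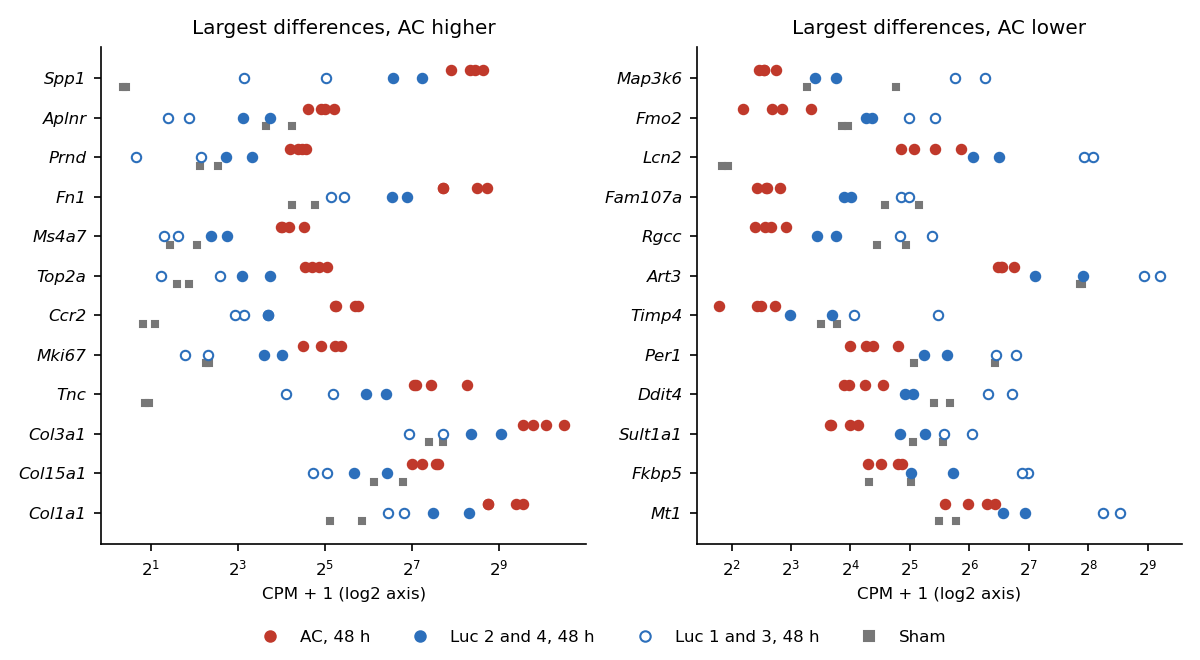
CPM + 1 (log2 axis) of the 12 genes with the largest called difference in each direction, among genes at 10 CPM or more whose groups did not overlap; red, AC; filled blue, Luc 2 and Luc 4; open blue, Luc 1 and Luc 3; grey squares, sham. Luc 2 and Luc 4 lie between AC and the other pair in 24 of the 24 genes. These genes were picked by size from the same libraries, and the share over all genes was not counted.

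Vessel genes gave few calls. Of 16 endothelial markers, Cd36 (705.0 to 840.1 CPM in AC, 1036 to 2341 CPM in Luc) and Ly6c1 (-0.64, adjusted p = 0.0492) fell and 0 rose, by limma and by limma-voom alike, and 0 were higher at an unadjusted p under 0.05. Pecam1 (0.05), Cdh5 (0.17) and Kdr (0.17), which define the cell type, were not called. No endothelial marker was called without Luc 1 and Luc 3, or with any AC library, Luc 1 or Luc 3 left out alone. Among the largest single differences were 2 genes of vessel growth, named by their size. Aplnr, the apelin receptor, was at 23.4, 31.3, 35.9 and 28.9 CPM in AC and 1.64, 7.68, 2.69 and 12.4 CPM in Luc, where sham hearts had 18.1 and 11.5 CPM (2.40, SE 0.43, adjusted p = 0.0107). Prnd, which encodes the prion-like protein doppel, was at 17.2 to 22.6 CPM against 0.595 to 8.99 CPM (2.18, adjusted p = 0.0156).

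Genes of fatty acid use were lower in AC. Pnpla2, the first lipase of triglyceride breakdown, was at 145.7, 146.0, 132.3 and 149.8 CPM in AC and at 444.5, 270.6, 422.9 and 224.7 CPM in Luc (-1.18, SE 0.21, adjusted p = 0.0107). Acsl1, which activates fatty acids, was at 287.5 to 347.4 CPM against 433.1 to 633.2 CPM (-0.67, adjusted p = 0.0226), with sham hearts at 695.2 and 853.8 CPM. Acadm, a dehydrogenase of beta-oxidation, was at 403.9 to 479.2 CPM against 594.1 to 837.4 CPM (-0.62, adjusted p = 0.0286), with sham hearts at 1399 and 1288 CPM. Of the 30 genes 8 fell and 0 rose (0 by limma-voom and 0 at an unadjusted p under 0.05), with a median of -0.62, and 18 of 30 had all AC libraries under all Luc libraries, against 3.58% of all genes. The count of 8 was 1 without Luc 1 and Luc 3, where the median was -0.37, and 23 after median-ratio rescaling, and with single libraries left out it was 1 without AC 2, AC 4, AC 5 or Luc 3, 4 without Luc 1 and 25 without Luc 4. The summed level of the list was 20450 and 18980 CPM in Luc 1 and Luc 3, 13870 and 12310 CPM in Luc 2 and Luc 4, 9219 to 10450 CPM in AC and 21130 and 21420 CPM in sham hearts.

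Respiratory chain subunits leaned the same way, and their calls depended on the scaling. All 40 had a difference below 0, from -0.55 to -0.24, but 0 were called by limma or limma-voom, and 15 were lower at an unadjusted p under 0.05. With median-ratio rescaling 8 of 40 were called lower, with all 24 libraries in the model 8, with equal-total rescaling 5, with array weights 3, without AC 1 3 and without Luc 4 8. Sdha, a subunit of succinate dehydrogenase, was at 517.8, 564.3, 588.9 and 579.9 CPM in AC and 970.8, 701.2, 805.0 and 697.2 CPM in Luc (-0.48, adjusted p = 0.0671). Sarcomere genes gave 0 calls of 24 by both tools, with 6 lower at an unadjusted p under 0.05. Myh6 was at 5131, 9183, 6261 and 6621 CPM in AC against 14747, 8953, 12348 and 9572 CPM in Luc (-0.75, adjusted p = 0.0909), and the 2 groups overlapped. Hrc, a calcium-binding protein of the sarcoplasmic reticulum, was the single called gene of 25 for calcium handling and ion channels (-0.63, adjusted p = 0.0355). Klf15, a transcription factor of cardiac lipid metabolism, was the single called gene of 15 regulators of the PPAR and PGC-1 group (-0.59, adjusted p = 0.0396). Neither list had a call without Luc 1 and Luc 3, or with AC 2, AC 4, AC 5 or Luc 1 left out alone. Nppa, the atrial natriuretic peptide, was at 2898, 1660, 1189 and 1807 CPM in AC and at 1089, 897.3, 491.0 and 1106 CPM in Luc (1.07, adjusted p = 0.0568). The summed atrial genes were at 3007, 1729, 1267 and 1947 CPM in AC and at 1138, 932.2, 580.4 and 1223 CPM in Luc, most of it Nppa. Of 11 tested, 1 was called, Gnb3, which was lower in AC (-1.11, adjusted p = 0.0171). The list median was 0.625, against 0.135 for all genes, and 9 of the 11 lay above 0. Array weights called 7 higher and 1 lower. The part of atrial tissue in these results was not tested.

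The genes with the largest decreases have mixed functions. Map3k6, a stress-activated kinase, was at 4.85, 5.76, 4.5 and 4.86 CPM in AC and at 53.1, 12.6, 75.6 and 9.62 CPM in Luc (-2.22, SE 0.54, adjusted p = 0.0302). Fmo2, a flavin monooxygenase, was at 3.57, 5.42, 9.06 and 6.17 CPM against 30.7, 19.5, 42.1 and 18.1 CPM (-2.0, SE 0.29, adjusted p = 0.00856). Fam107a, an actin-associated protein, was at 6.04, 5.06, 4.37 and 5 CPM against 27.8, 15.1, 30.8 and 13.8 CPM (-1.83, SE 0.25, adjusted p = 0.00856). AC libraries lay close together in these genes, and Luc 1 and Luc 3 were the highest.

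Fkbp5, a co-chaperone of steroid receptors, was at 21.8, 28.1, 26.8 and 18.7 CPM against 125.7, 52.0, 117.2 and 31.5 CPM (-1.54, SE 0.38, adjusted p = 0.031), while sham hearts had 18.8 and 31.4 CPM. Mt1, metallothionein, was at 47.5 to 85.8 CPM against 93.5 to 370.3 CPM (-1.49, adjusted p = 0.0423). Ddit4, an inhibitor of the growth kinase mTOR complex, was at 13.8 to 22.3 CPM against 29.4 to 103.7 CPM (-1.59, adjusted p = 0.0246). Per1, a negative arm of the circadian clock, was at 15, 19.9, 18.1 and 27.0 CPM against 86.5, 36.7, 109.0 and 48.2 CPM (-1.66, SE 0.31, adjusted p = 0.0126). Per1 and Per2 (-1.20, adjusted p = 0.0148) were among the 3 clock genes of 19 that fell, and Dbp, a clock output gene, rose (1.26, adjusted p = 0.0396). Without Luc 1 and Luc 3, 1 clock gene fell. Dbp was not called there, nor without any single library other than Luc 4. Rgcc (-1.72), Art3 (-1.72) and Sult1a1 (-1.56), a sulfotransferase, complete the 12 with Timp4 and Lcn2.

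All 12 decreases were smaller against Luc 2 and Luc 4 alone. Without Luc 1 and Luc 3, the difference was -1.01 for Map3k6, -1.55 for Fmo2 and -0.76 for Fkbp5, and Fkbp5, Lcn2, Mt1 and Timp4 were then not called.

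The letters GNACANNNTGTNC, a palindrome of 2 half-sites bound by the glucocorticoid receptor, were looked for in the same 300-base promoters, on both strands. The letters and the genes were chosen after the values were seen. They were found for 3 of the 12 genes with the largest decreases (Map3k6, Fam107a and Mt1), for 0 of 9 matched genes with the largest increases, and for 0.401% of tested genes with a promoter and 0.537% of all genes with one. No match says only that these letters are not in this window. The stretches are shown with the letters in capitals, from chr4:133240614-133240673 (plus strand), chr14:8309861-8309920 (minus strand) and chr8:94178972-94179031 (plus strand) of GRCm38.p6.
Map3k6: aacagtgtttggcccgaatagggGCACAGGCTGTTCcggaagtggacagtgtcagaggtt
Fam107a: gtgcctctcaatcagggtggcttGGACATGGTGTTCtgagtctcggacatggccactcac
Mt1: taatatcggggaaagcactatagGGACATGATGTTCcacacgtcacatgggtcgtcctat

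Genes of cell death were mixed in function. Of 27 genes 7 rose and 1 fell. Those that rose include the caspase Casp8 (0.53) and the mitochondrial pore protein Bak1 (0.59, adjusted p = 0.023), while the death receptor Fas fell (-0.91, adjusted p = 0.0293). Median-ratio rescaling left 2 higher and 3 lower, and 1 rose without AC 2, AC 4 or AC 5. Without Luc 1 and Luc 3, 7 rose and 0 fell, so Fas was not called there. Serine and asparagine synthesis genes of the stress list rose, namely Phgdh (0.98, adjusted p = 0.00984), Psat1 (0.84) and Asns (0.82), and Ddit4, Mt1 and Cat, catalase (-0.53, adjusted p = 0.0322), fell, of 29 in all. Lipid mediator genes included Pla2g4a, the phospholipase that frees arachidonic acid (11.0 to 13.2 CPM against 3.95 to 6.58 CPM, 1.06, adjusted p = 0.00856), Hpgds (0.84), Tbxas1 (0.92) and Ptger4 (0.67), in a list with 6 of 18 higher, or 2 without AC 2. Ptgs2 (0.23), the inducible cyclooxygenase, was not called. Of 21 sterol synthesis genes 5 rose, among them Stard4 (0.69) and Msmo1 (0.61), and none was called without Luc 1 and Luc 3 or with AC 2, AC 4 or AC 5 left out alone. The list median was 0.41 with all libraries and 0.32 without Luc 1 and Luc 3. Immediate early genes (0 of 22 by both tools, 7 at an unadjusted p under 0.05), fetal and stretch genes (0 of 12, 3 at an unadjusted p under 0.05) and ribosomal protein genes (0 of 32, 2 at an unadjusted p under 0.05) gave no call. Nor did erythroid and platelet genes (0 of 8 by both tools, 0 at an unadjusted p under 0.05). Of 16 lymphocyte markers 1 was abundant enough to test, Cd3e (-1.25, adjusted p = 0.212), where Luc 3 (18.3 CPM) stood apart. With no filter on low values 15 were tested, and 8 were called higher in AC and 0 lower, at a median of 0.28 and at levels averaging under 1 CPM over the 24 libraries for all but Cd3e. The single call of 29 glycolysis and hypoxia genes was Hk3, a hexokinase of myeloid cells (0.77, adjusted p = 0.0129), and that of 6 adipocyte and nerve sheath genes was Cnp (0.58, adjusted p = 0.0406), which was not called without Luc 1 and Luc 3, or without any single library other than Luc 4. Adam17, a membrane sheddase, rose (0.68, adjusted p = 0.0475) with Timp1 among 19 matrix proteases and inhibitors, where Timp4 fell.

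At the earlier times few genes were called. At 4 h 1 gene was called, Asah1 itself (0.00796% of 12555), and 259 were at an unadjusted p under 0.05 (2.06%). At 24 h, with 3 libraries a group, limma called 0 genes, and 551 were at an unadjusted p under 0.05 (4.39%). To compare the times, the difference between the AC effects was tested in one limma model over all 24 libraries. The AC effect at 48 h differed from that at 4 h for 421 genes (3.35%), 362 higher (2.88%) and 59 lower (0.47%), and from that at 24 h for 322 genes (2.56%), 280 higher (2.23%) and 42 lower (0.335%). Both counts rested largely on Luc 1 and Luc 3, without which they were 50 and 102.

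Among cell cycle genes 25 of 31 had a higher AC effect at 48 h than at 4 h, and 25 of 31 than at 24 h, or 9 and 19 of 31 without Luc 1 and Luc 3. Their median AC minus Luc difference was -0.03 at 4 h, -0.29 at 24 h and 1.54 at 48 h. Plk1 differed by 1.74 from 4 h (adjusted p = 0.00484) and by 1.95 from 24 h (adjusted p = 0.00268). Collagen genes gave 8 of 17 against each earlier time, with medians of -0.25, -0.35 and 1.31, and monocyte and macrophage markers gave 7 and 5 of 18, with medians of -0.02, 0.20 and 0.90. In the other direction, 6 of 30 fatty acid genes had a lower effect than at 4 h and 3 of 30 than at 24 h. Without Luc 1 and Luc 3, monocyte and macrophage markers gave 2 and 1 such calls, though the median difference was 0.91 against 0.84 with all libraries for 4 h and 0.80 against 0.79 for 24 h, and collagen and fatty acid genes gave 0 at both times, with medians of 0.99 and 1.05 for collagen (1.53 and 1.38 with all libraries) and of -0.37 at both for fatty acid genes (-0.64 and -0.63). The genes whose effect rose most clearly from 4 h were Meox1 (1.76), Ms4a7 (2.19), Ltbp2 (1.91), Gdf6 (1.39), a BMP ligand, and Plk1. Those with the clearest fall were Asah1, Fam107a (-1.97), Fmo2 (-1.98), Sult1a1 (-1.96) and Ogdhl (-1.86). Against 24 h they were Iqgap3 (2.26), Kif22 (2.02), Pimreg (1.8), Plk1 and Cd72 (2.43), a receptor of B cells and macrophages, upward, and Gsta3 (-1.85), Fmo2 (-2.41), Fam107a (-1.67), Fah (-1.86) and Ppl (-1.90) downward. Each had an adjusted p of 0.0121 or lower. The times share the Luc and AC libraries at 48 h, so the 2 sets of differences are not independent.

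**Figure D5:**
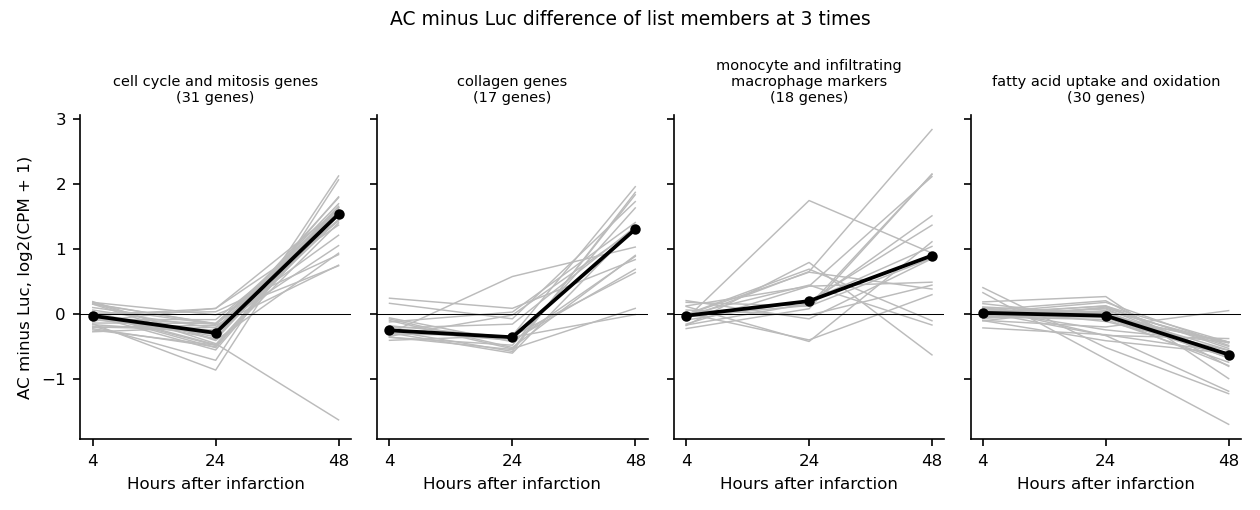
AC minus Luc difference on the log2(CPM + 1) scale at 4, 24 and 48 h for the members of 4 lists (grey lines) and their median (black). Cell cycle medians run -0.03, -0.29 and 1.54, fatty acid medians 0.02, -0.02 and -0.62, and collagen medians -0.25, -0.35 and 1.31. All 4 medians lie farthest from 0 at 48 h.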

How the data were processed

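Left ventricular RNA of infarcted CFW mice was read as poly(A) RNA with a stranded kit. The deposited table holds normalised values in CPM per gene, with 1 added, since 1 is the lowest value of every library. The build was mm10 per the labels. The methods of the study, which describe its RNA-seq in general and do not name these 24 libraries, give scaling by the trimmed mean of M values by the authors. Counting split reads among transcripts there, so near-identical genes are uncertain. The value 1 was subtracted, genes averaging 1 CPM or more over 24 libraries were kept, and log2(CPM + 1) was tested with limma 3.58.1 (R 4.3.3, moderated with a trend, two-sided, 8 libraries). Differences between times used 1 model over 24 libraries. The step method was checked: 83.6 to 85.1% of values were whole reads (tolerance 0.05 read). Whole reads were thus not recovered, and limma-voom on estimated reads is an alternative chosen after seeing the data, as are both settings without a pair of Luc libraries. Libraries were grouped by label, and no 2 libraries were identical. Named genes were the 12 largest differences per direction among called genes at 10 CPM or more without overlap, the ceramidases, the 4 members with the smallest p per list, and the 5 smallest adjusted p per direction for each difference between times. Other named genes were picked after their values were seen. Some genes that this rule names are not reported here. Members and lists were chosen with earlier results of these data known. Promoters came from RefSeq (GRCm38.p6). The limma fit was tested on simulated data. A second count table of 10 other samples was not used here.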

Additional observations from a re-analysis of the deposited data

Results flagged for a closer look

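In 262 combinations of a named gene and a group of 4 libraries, 9 single libraries stood apart from the other 3, 6 of them Luc and 3 AC, where chance flags about 1 in 20. In Luc 1 these were Cd163 (24.0 CPM) and Tgfbi (89.5 CPM), in Luc 3 Cd3e (18.3 CPM), and in Luc 4 Cenpf (21.1 CPM), Cnn1 (4.15 CPM) and Fah (24.2 CPM). In AC 1 they were Casp8 (17.7 CPM) and Cdkn1a (37.5 CPM), and in AC 4 Psat1 (15.9 CPM).

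The AC minus Luc difference changed between times, by the interaction term of limma, for 421 genes between 4 h and 48 h and for 322 genes between 24 h and 48 h. Relative to 4 h, the effect at 48 h was higher for Meox1 (1.76), Ms4a7 (2.19), Ltbp2 (1.91), Gdf6 (1.39) and Plk1 (1.74), and lower for Asah1 (-6.70), Fam107a (-1.97), Fmo2 (-1.98), Sult1a1 (-1.96) and Ogdhl (-1.86). Relative to 24 h, it was higher for Iqgap3 (2.26), Kif22 (2.02), Pimreg (1.8), Cd72 (2.43) and Plk1 (1.95), and lower for Gsta3 (-1.85), Fmo2 (-2.41), Fam107a (-1.67), Fah (-1.86) and Ppl (-1.90).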

How the results depend on the processing

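The count of 1208 called genes (1034 higher, 174 lower) was 409 (309 and 100) with a minimum of 10 CPM, where 7719 genes were tested, 1926 (410 lower) with all 24 libraries in the model, 2631 (2237 and 394) with array weights, and 537 higher and 440 lower with median-ratio rescaling. It was 681 (607 and 74) without Luc 1 and Luc 3 and 4652 (3153 and 1499) without Luc 2 and Luc 4. Leaving out 1 library gave 305 to 2628 called genes, 270 to 2091 higher and 35 to 537 lower: 305 without AC 2, 414 without AC 4, 413 without AC 5, 677 without Luc 1, 637 without Luc 3 and 2628 without Luc 4. The difference from 4 h (421 genes) was called for 235 genes with a pseudocount of 0.1, 103 with a minimum of 10 CPM, 1621 with array weights, 742 with equal-total rescaling, 215 to 1056 with 1 library left out, 50 without Luc 1 and Luc 3 and 2234 without Luc 2 and Luc 4. That from 24 h (322 genes) was called for 205, 71, 495 with no filter, 991 with array weights, 154 to 703 with 1 library left out, 102 without Luc 1 and Luc 3 and 1472 without Luc 2 and Luc 4. The cause of these moves was not tested.

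Library numbers shared by AC and Luc (1, 2 and 4) correlated at 0.189, -0.206 and 0.197 in their deviations from group means. Other combinations of an AC and a Luc library ranged from -0.189 to 0.154. These few values do not settle whether the numbers pair the libraries. With the replicate block 172 genes were called (157 higher, 15 lower), against 133 in the same 6 libraries without it.

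Of 2306 combinations of a called named gene and an alternative, 1918 were still called and 0 changed direction. Most of these genes were named for a large difference or a small p in the same libraries. Where groups do not overlap, leaving libraries out cannot reverse the sign, so the 0 does not test the direction. Over all 1208 called genes, 304 were still called without AC 2 and 532 without Luc 1 and Luc 3. Uncalled genes near 0 changed sign. With array weights Asah2 was at -0.0535. With median-ratio rescaling Asah2 was at -0.0714, Cdh5 at -0.00337, Col4a1 at -0.0818, Kdr at -0.00018, Pdgfra at -0.00132 and Pecam1 at -0.122. With the block Asah2 was at -0.00283. With 1 library left out Asah2 ranged from -0.0389 to 0.224, Col4a1 from -0.0886 to 0.275 and Pecam1 from -0.133 to 0.182. Without Luc 1 and Luc 3 Asah2 was at -0.138, and without Luc 2 and Luc 4 Col4a1 was at -0.30, Kdr at -0.0315, Pecam1 at -0.283 and Ptgs2 at -0.141.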
